A study of Sus scrofa with 220 samples.

Results

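The comparison set cells of pig morulae (M) against trophectoderm (TE) cells of early blastocysts (EB), the outer epithelium of the embryo. It took in 46 of the 47 cells labelled as morula, from 8 embryos, and all 28 cells labelled EB TE, from 10 embryos, together 74 of the 220 cells of the series. The remaining morula cell was left out, because the embryo it came from could not be read from its identifier. All embryos were conceived in vivo after artificial insemination of crossbred Large White and Landrace sows, and M is the younger stage. The study's age ranges for the 2 stages adjoin. By the study's inference of sex from Y-linked expression, most M cells were male and most EB TE cells were female. Sex was not in the model, and its part in the differences was not tested. Zonae were removed, embryos were dissociated, and cells were picked by hand for Smart-seq2, a full-length method for polyadenylated RNA. The lineage of a blastocyst cell had been assigned by the study from its expression profile and known markers, so genes that mark TE are not independent of the TE label. Counts were added up within each embryo, since cells of 1 embryo are not separate replicates, and such a sum cannot tell fewer positive cells from less RNA per cell. The embryo was read from the letters of the cell identifier.

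An M sum held 2 to 10 cells and 5671355 to 22875488 counts, and a TE sum held 1 to 9 cells and 1342788 to 18741445 counts, with 3 TE sums of 1 cell. Counts per cell were similar in both groups, with a median of 2099939 in M and 1945998 in TE. Genes with a count per cell, as means over the cells of each embryo, averaged 6001 ± 627 (SD, n = 8 embryos) in M and 5244 ± 950 (SD, n = 10 embryos) in TE, a difference of -757 that did not pass a two-sided exact permutation test (p = 0.0703). Thinned to 1000000 reads per cell, the difference was -719 (p = 0.0869, exact permutation test). A TE sum stood apart from its label. The cell that was the whole TE sum of embryo E6-ER had no count for KRT8, GATA2, GATA3 or DAB2, which marked the other 9 TE sums. Results were therefore given with it, as labelled, and without it. Since these genes set it apart, values without it are not independent support for them.

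Before implantation, the outer cells of the morula polarise, flatten into an epithelium and become the trophectoderm, which later forms the fetal part of the placenta. The inner cells become the inner cell mass (ICM), the source of the embryo proper and the hypoblast. In mammals studied in detail, the outer position shuts off the Hippo kinases, and the coactivator YAP with its DNA-binding partner TEAD4 then switches on trophectoderm transcription factors such as GATA3. Simple-epithelium keratins, sealed junctions and ion pumps let the epithelium hold the blastocyst cavity.

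Across the 14721 genes tested, 119 differed between M and TE with an adjusted p under 0.05 in edgeR's quasi-likelihood test. Of these, 37 were higher in TE, 0.251% of the genes tested, and 82 were higher in M, 0.557%. Without embryo E6-ER the counts were 87 (0.591%) and 132 (0.897%). Of the 119 genes, 118 were called both ways, with the same sign in all 118. At an unadjusted p under 0.05, 900 genes (6.11%) had higher levels in TE and 2175 (14.8%) in M. The counts of the gene lists are to be read against these shares and those of called genes. CPM, counts scaled to 1000000 gene reads after TMM normalization, separated all M from all TE embryos for 59 genes (0.401%), and for 112 genes (0.761%) without E6-ER. Among called genes, 30 separated the embryos completely, 9 of them higher in TE and 21 higher in M. DESeq2 called 272 and 329 genes and limma 116 and 259, higher in TE and in M. The log2 fold change, coded as TE minus M, had a median over all genes of -0.16, and -0.13 without E6-ER.

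**Figure D1:**
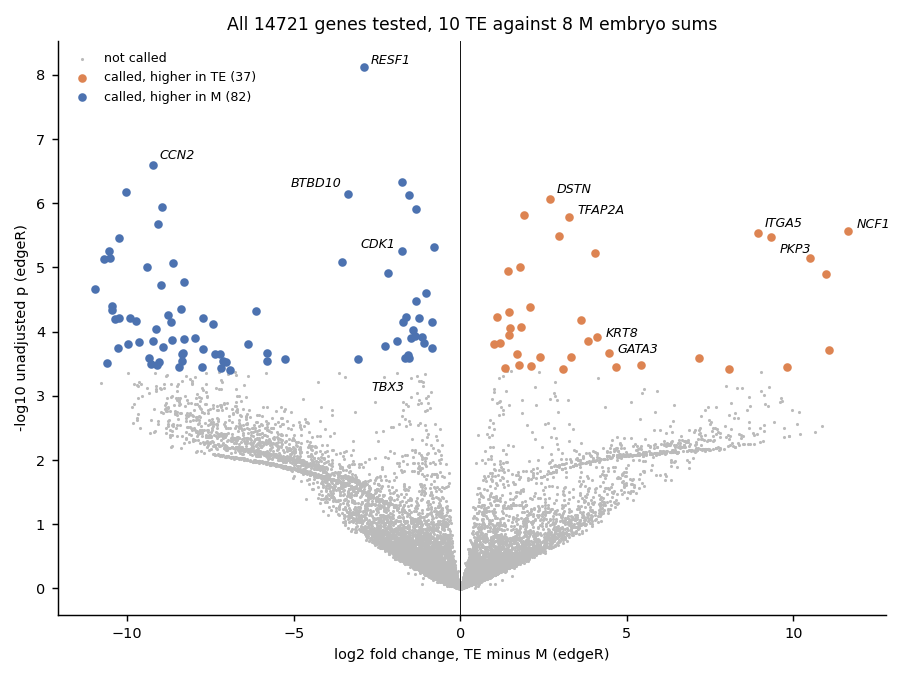
Each point is 1 of the 14721 genes, with its log2 fold change (TE minus M) on the x axis and -log10 of its unadjusted edgeR p on the y axis, from 10 TE and 8 M embryo sums. The 82 genes called higher in M include a large group beyond a log2 fold change of -5, whereas the 37 called higher in TE lie mostly between 1 and 5.

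In 55 of the 82 genes higher in M, the log2 fold change was beyond 5 in size, and TE held no count at all for 23 genes and 1 to 3 counts for 24 more. A further 21 genes changed by less than 2 on the log2 scale. Genes higher in TE had smaller changes, with a median of 3.07 and 10 of 37 over 5, against a median size of 7.74 for genes higher in M. M sums were deeper, with a median of 13021011 counts against 4989641 in TE, and held a median of 6 cells against 2. The part of depth in the number of genes with no TE count was not tested.

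Of 5 genes taken as TE markers, 4 were called, all higher in TE. They were 2 keratins and 2 GATA factors. DESeq2 called all 4 higher in TE, and limma called 2 of them. KRT8 (ENSSSCG00000000252), a keratin of simple epithelia, was at 196 to 3353 CPM in M (median 1306) and at 0 to 40765 CPM in TE (median 30634), where the 0 was E6-ER and the next lowest TE embryo was at 11949. Apart from E6-ER, every TE embryo lay above every M embryo, and the gene was already abundant in M. The log2 fold change was 4.12 ± 0.89 (SE, edgeR, adjusted p = 0.028), and 4.26 ± 0.47 (SE, edgeR, adjusted p = 1.95e-05) without E6-ER. KRT18 (ENSSSCG00000000253), the keratin that pairs with it in filaments, ran from 299 to 1767 CPM in M (median 1168) and, E6-ER aside, from 3698 to 15031 CPM in TE, with E6-ER at 0.216. The difference on the log2 scale was 3.07 ± 0.74 (SE, edgeR, adjusted p = 0.0472), against 3.22 ± 0.33 (SE, edgeR, adjusted p = 8.77e-06) without that embryo.

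GATA3 (ENSSSCG00000011125) and GATA2 (ENSSSCG00000011618), zinc finger factors of the trophoblast lineage, were low but present in most M embryos. GATA3 was at 0 to 23.1 CPM in M (median 10.5) and at 166 to 461 CPM in the 9 TE embryos other than E6-ER. The fitted log2 fold change was 4.46 ± 1.02 (SE, edgeR, adjusted p = 0.0367), and 4.60 ± 0.79 (SE, edgeR, adjusted p = 0.00268) without E6-ER. GATA2 was at 0 to 31.4 CPM in M (median 6.02) and at 96 to 654 CPM in the same 9 TE embryos. For both genes these 9 embryos and the M embryos did not overlap. GATA2 had a log2 fold change of 4.68 ± 1.13 (SE, edgeR, adjusted p = 0.0467), and 4.83 ± 0.92 (SE, edgeR, adjusted p = 0.00656) without E6-ER.

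The calls varied with the embryos in the model. With E6-ER in it, KRT8 was called in 14 of 18 fits that each left out 1 embryo, and not without M embryo S, U, W or X. GATA3 was called in 8 of 18, and not without M embryo ER, S, T, U, W or X or TE embryo AA, AD, AE or AI. GATA2 and KRT18 were called in 1 of 18 fits each, the one without E6-ER. With E6-ER left out, each of the 4 was called in 17 of 17 fits that left out 1 further embryo. That count is no independent support, as E6-ER was set apart by its lack of KRT8, GATA2 and GATA3 counts. Sample titles carry 8 library numbers, and in samples with the last 4 of them, which hold E6-ER, the KRT8 log2 fold change was 4.35 (edgeR, adjusted p = 0.128), against 3.95 (edgeR, adjusted p = 8.54e-05) in the first 4. GATA3 did not pass the threshold with the first or the last 4 numbers (edgeR, adjusted p = 0.0567 and 0.146), nor did GATA2, with 0.242 and 0.126.

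TBX3 (ENSSSCG00000009865), a T-box factor listed both as a TE marker and as a pluripotency gene, went the other way. The study counts it among the naive pluripotency markers found in M and ICM. Its level was 264 to 833 CPM in M (median 580.0), 55.7 to 489 CPM in TE (median 180.3) and 17.6 to 277 CPM in ICM (median 134). The log2 fold change of -1.49 (edgeR, adjusted p = 0.0706) did not pass the threshold, while DESeq2 and limma each called it higher in M. The log2 fold change of TE minus ICM was 0.54 (edgeR, adjusted p = 0.844), and that of ICM minus M was -1.98 (adjusted p = 0.00962).

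**Figure D2:**
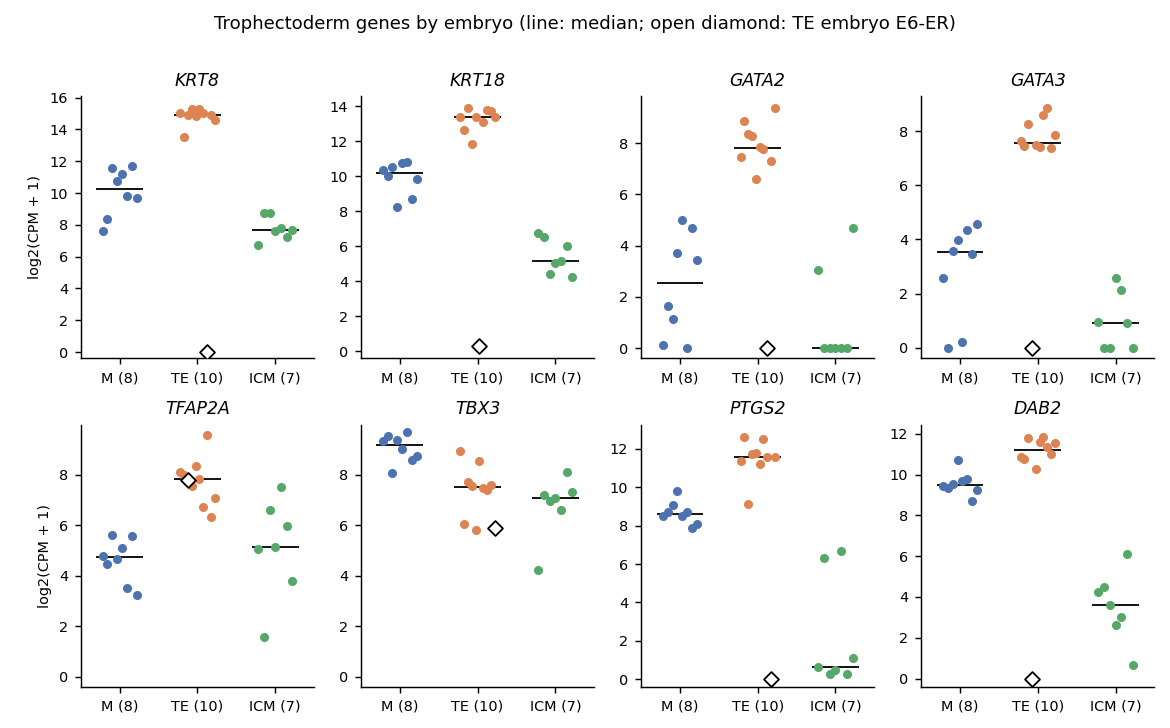
Points are embryo sums of M (8), TE (10) and ICM (7), the y axis is log2(CPM + 1), lines are medians and the open diamond is TE embryo E6-ER. KRT8, KRT18, GATA2, GATA3, PTGS2 and DAB2 are high in the other 9 TE embryos and at or near 0 in E6-ER, TFAP2A separates M from all 10 TE embryos, and the median of TBX3 is highest in M.

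Single cells showed the same order. KRT8 reached a median of 579 TPM (length-scaled reads, summing to 1000000 per cell) in M cells and 28351 TPM in TE cells, and 26 of 28 TE cells were above the highest M cell, at 6392 TPM. Below that level the groups met: 20 of 46 M cells were at or above 1198 TPM, the lowest TE cell other than E6-ER. That TE cell, AB6, was 1 of the 9 cells of embryo AB, and the next lowest TE cell was at 12177 TPM. AB6 also had 753 TPM of KRT18, 117 TPM of DAB2 and 0 TPM of GATA2, GATA3 and TFAP2A. GATA3 was above TPM 1 in 20 of 46 M cells (exact 95% interval 28.9 to 58.9%) and 26 of 28 TE cells (76.5 to 99.1%). GATA2 was above TPM 1 in 11 of 46 M cells (12.6 to 38.8%) and 25 of 28 TE cells (71.8 to 97.7%). Both GATA genes were above TPM 1 in the same cell in 25 TE cells, 2 of 24 ICM cells and 9 M cells, which came from 5 of the 8 morulae. Neither was above TPM 1 in 24 M cells and 2 TE cells, the E6-ER cell and AB6. KLF4 ran opposite, above TPM 1 in 46 of 46 M cells (an exact interval reaching down to 92.3%), 12 of 28 TE cells (24.5 to 62.8%) and 23 of 24 ICM cells. These intervals cover counting error only, and cells of 1 embryo are not independent.

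**Figure D3:**
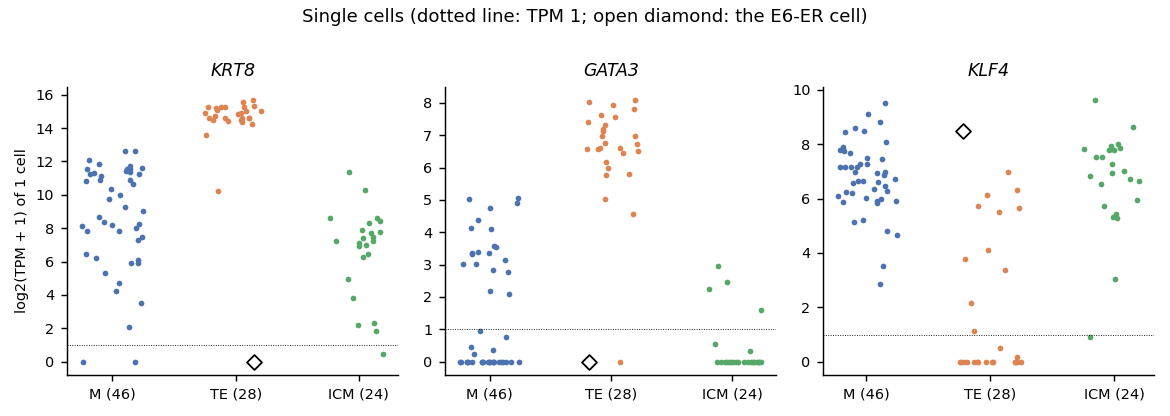
Each point is 1 cell of M (46), TE (28) or ICM (24), the y axis is log2(TPM + 1), the dotted line is TPM 1 and the open diamond is the E6-ER cell. KRT8 in 26 of 28 TE cells is above every M cell, GATA3 is above TPM 1 in 20 M cells, and KLF4 is above TPM 1 in 12 TE cells.

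Of 17 trophectoderm transcription factors tested, 3 were called, all higher in TE, also without E6-ER (0.251% and 0.591% of all genes). They were TFAP2A and the markers GATA2 and GATA3. The list's median log2 fold change was 0.38 against -0.16 for all genes. TFAP2A (ENSSSCG00000001036), an AP-2 factor, was at 8.45 to 47.5 CPM in M (median 25.6) and at 80.7 to 771 CPM in TE (median 226), E6-ER among them at 224. All 10 TE embryos were above all 8 M embryos, and the log2 fold change was 3.26 ± 0.51 (SE, edgeR, adjusted p = 0.0022). It was called in 18 of 18 fits that left out 1 embryo, and with the last 4 library numbers (edgeR, adjusted p = 0.0245) but not in the first 4 (0.121). Its relative TFAP2C (ENSSSCG00000007499) was abundant in both groups, at a median of 1308 CPM in M and 892 CPM in TE, with overlapping embryos and a log2 fold change of -0.71 ± 0.28 (SE, edgeR, adjusted p = 0.116). GRHL2 (ENSSSCG00000006060), a factor of epithelial identity, was at a median of 55.6 CPM in M and 29.7 CPM in TE (log2 fold change -0.86, edgeR, adjusted p = 0.789), and at a median of 0 CPM in ICM. CDX2, HAND1 and KLF5 were not analysed here.

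Among the lists, that of the cytoskeleton had the most genes called higher in TE. Of 21 keratins, annexins, tropomyosins and cortical linkers tested, 5 were called, all higher in TE, against 0.251% of all genes. They include KRT8 and KRT18, both TE markers above, which are not independent of the TE label. Without E6-ER 8 were called, against 0.591% of all genes. The median log2 fold change of the list was 1.28, and 1.43 without that embryo, against -0.16 and -0.13 for all genes. TPM4 (ENSSSCG00000013849), a tropomyosin, which winds along actin filaments, was at 0 to 51.4 CPM in M (median 34.2) and at 82.6 to 1103 CPM in TE (median 475). No TE embryo reached down to the M range, and the log2 fold change was 4.05 ± 0.70 (SE, edgeR, adjusted p = 0.00423). TPM1 (ENSSSCG00000004570), also a tropomyosin, was at 39.2 to 278 CPM in M (median 82.1) and at 412 to 1658 CPM in the 9 TE embryos, with E6-ER at 35.8. Its change on the log2 scale was 2.97 ± 0.49 (SE, edgeR, adjusted p = 0.00303), and 3.11 ± 0.37 (SE, edgeR, adjusted p = 5.14e-05) without E6-ER. DSTN (ENSSSCG00000007085), which severs actin filaments, had medians of 328 and 2630 CPM, with E6-ER at 139, and the smallest adjusted p of the genes higher in TE that carry a symbol (log2 fold change 2.71, edgeR, adjusted p = 0.00182). ACTB (ENSSSCG00000007585), the actin itself, had a smaller difference, with medians of 3344 and 8758 CPM, overlapping embryos and a log2 fold change of 1.10 ± 0.22 (SE, edgeR, adjusted p = 0.0186).

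Annexins bind membranes in the presence of calcium. ANXA1 (ENSSSCG00000005267) was at 0 to 186 CPM in M (median 27.7) and at 80.5 to 1110 CPM in TE (median 645), with E6-ER lowest. The log2 fold change was 3.31 ± 0.77 (SE, edgeR, adjusted p = 0.0396), called in 8 of 18 fits that left out 1 embryo and in 17 of 17 once E6-ER was out. It was not called, with E6-ER in, without M embryo ER, S, U, W or X or TE embryo AA, AC, AD, AG or AH. ANXA6 (ENSSSCG00000017089) was at 0 to 15.9 CPM in M (median 1.57) and had a TE median of 205 CPM. A log2 fold change of 5.50 ± 1.43 (SE, edgeR, adjusted p = 0.0613) did not pass the threshold, and without E6-ER it did, at 5.65 ± 1.26 (SE, edgeR, adjusted p = 0.0221). S100A11 (ENSSSCG00000006610), a calcium-binding partner of annexins, followed this pattern, with M at 0 to 20.2 CPM, the 9 TE embryos at 43.9 to 346 CPM and a log2 fold change of 3.41 without E6-ER (edgeR, adjusted p = 0.0221, 0.0877 with it).

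Of 30 tight junction, adherens junction, desmosome and polarity genes tested, 1 was called, PKP3, with a list median of -0.19. PKP3 (ENSSSCG00000027302), a plakophilin of desmosomes, had 10 counts in all 46 M cells and 4719 in TE, and ran from 3.2 to 468 CPM in TE (median 42.6). Every TE embryo was above every M embryo, whose highest was 0.763 CPM. The highest TE embryo was E6-ER, and the log2 fold change went from 9.32 ± 1.54 (SE, edgeR, adjusted p = 0.00303) to 8.21 ± 1.47 (SE, edgeR, adjusted p = 0.00418) without it. CLDN4 (ENSSSCG00000007718), a claudin, was at 763 to 1243 CPM in M and at 157 to 803 CPM in the 9 TE embryos (log2 fold change without E6-ER -0.99, edgeR, adjusted p = 0.0587). EPCAM (ENSSSCG00000008429), an epithelial adhesion molecule, was present in both groups, at medians of 351 and 151 CPM (log2 fold change -0.82, edgeR, adjusted p = 0.714).

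At the surface, ITGA5 and PDPN were higher in TE. ITGA5 (ENSSSCG00000000293), the alpha chain of a fibronectin receptor, was at 0 to 0.456 CPM in M, with 16 counts in all, and at 2.49 to 244 CPM in the 9 TE embryos (0 in E6-ER). ITGA5 had a log2 fold change of 8.92 ± 1.46 (SE, edgeR, adjusted p = 0.00303), or 9.08 ± 1.21 (SE, edgeR, adjusted p = 0.000232) without E6-ER, and it was called with the first and with the last 4 library numbers (edgeR, adjusted p = 0.0279 and 0.0311). In ICM it was at 98.8 to 323 CPM. PDPN (ENSSSCG00000003451), a membrane glycoprotein that links to ezrin, was at 3.46 to 43.6 CPM in M and at 49.8 to 627 CPM in the 9 TE embryos (0 in E6-ER), with a log2 fold change of 3.84 ± 0.85 (SE, edgeR, adjusted p = 0.0292), or 3.99 ± 0.57 (SE, edgeR, adjusted p = 0.000639) without E6-ER, and an ICM median of 1.22 CPM. PDPN lost its call without M embryo ER, S, U, V, W or Y, and with E6-ER out it was called in 17 of 17 fits.

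The Hippo list held 1 call. Of 20 kinases, scaffolds, coactivators, TEAD factors and targets tested, CCN2 was higher in M, and the list median was -0.14. CCN2 (ENSSSCG00000004192), a secreted matrix protein and a textbook target of YAP and TEAD, was at 17.7 to 148 CPM in M (median 48.4), and TE held 4 counts, all in embryo AI. ICM was also near 0, at a median of 0 and a highest value of 1.43 CPM, so the 8 morulae stood above all 17 blastocyst sums. The log2 fold change was -9.24 ± 1.29 (SE, edgeR, adjusted p = 0.00182), called in 18 of 18 fits that left out 1 embryo. CCN2 was called with the last 4 library numbers (edgeR, adjusted p = 0.0277) but not with the first 4 (0.0567). TEAD4 (ENSSSCG00000000736), the DNA-binding partner of YAP, was at medians of 72.9 CPM in M and 59.5 CPM in TE (log2 fold change -0.72, edgeR, adjusted p = 0.711). AMOT (ENSSSCG00000012591), a scaffold that holds YAP out of the nucleus, was at medians of 154 and 49.2 CPM (log2 fold change -1.07, edgeR, adjusted p = 0.531). YAP1 and LATS2 were not analysed here.

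Among 16 genes of ion and water transport, edgeR, DESeq2 and limma called 0. At an unadjusted p under 0.05, 1 was higher in TE and 1 in M, against 6.11% and 14.8% of all genes. ATP1B1 (ENSSSCG00000006296), the beta chain of the sodium pump, had a count in 7 of 8 M sums (median 22.7 CPM) and in 1 of 10 TE sums, and its log2 fold change of -3.27 ± 1.75 (SE, edgeR, adjusted p = 0.318) did not pass the threshold.

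SQLE (ENSSSCG00000005970), squalene epoxidase of sterol synthesis, was at 4.93 to 54.9 CPM in M (median 14.3) and at 15.6 to 786 CPM in TE (median 126), with overlapping embryos and a log2 fold change of 3.61 ± 0.75 (SE, edgeR, adjusted p = 0.0189). ACAT2 (ENSSSCG00000004049), the cytosolic thiolase at the start of the same pathway, had medians of 98.7 and 374 CPM and a log2 fold change of 1.81 ± 0.38 (SE, edgeR, adjusted p = 0.0221). ACAT2 was not on the list and was chosen after its values were seen. In the list of 28 lipid genes tested, SQLE was the only one edgeR called, 9 were higher in TE and 5 higher in M at an unadjusted p under 0.05 (6.11% and 14.8% of all genes), and the median was 0.35. Of 20 glycolysis genes edgeR called 0, with 3 above M at an unadjusted p under 0.05 (6.11% of all genes), 2 by DESeq2 and 1 by limma, and a median of 0.28.

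Other genes that separated all M from all TE embryos, higher in TE, have general functions. GMPR2 (ENSSSCG00000026947), a GMP reductase of purine metabolism, was at 67.9 to 211 CPM in M and 230.0 to 537 CPM in TE (log2 fold change 1.501, edgeR, adjusted p = 0.0223), and lost its call without M embryo S. SNX3 (ENSSSCG00000004385), a sorting nexin of early endosomes, was at 164 to 321 CPM in M and 383 to 892 CPM in TE (1.44, edgeR, adjusted p = 0.00576). In GMPR2 and SNX3, E6-ER was the lowest TE embryo and still above every M embryo. PSMD1 (ENSSSCG00000016272), a subunit of the proteasome cap, was at a median of 411 CPM in M and 788 CPM in TE with no overlap, a smaller change (1.02, edgeR, adjusted p = 0.0297). It was not called without M embryo ER, S, T or U or TE embryo AA. NCF1 (ENSSSCG00000007722), a subunit of the phagocyte NADPH oxidase, had no count in any M cell and 2627 counts in TE, in 9 of 10 sums, with E6-ER highest, and above TPM 1 in 14 of 28 cells. Its TE reads were 1503-fold above a level of 3 counts over the M group, a value that leaves out the spread between cells and embryos.

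Several genes of endocytosis and prostaglandin synthesis passed the threshold only without E6-ER. DAB2 (ENSSSCG00000016857), an endocytic adaptor, was at 418 to 1679 CPM in M (median 718) and at 1238 to 3690 CPM in the 9 TE embryos. With E6-ER at 0, the log2 fold change of 1.497 ± 0.66 (SE, edgeR, adjusted p = 0.178) missed the threshold, and without it the value was 1.64 ± 0.26 (SE, edgeR, adjusted p = 0.0011). PTGS2 (ENSSSCG00000015579), cyclooxygenase 2, was at 236 to 907 CPM in M (median 388) and at 557 to 6330 CPM in the 9 TE embryos. The fitted log2 fold change was 2.81 ± 0.74 (SE, edgeR, adjusted p = 0.0656), and 2.97 ± 0.35 (SE, edgeR, adjusted p = 5.96e-05) without E6-ER. PTGES (ENSSSCG00000005688), which makes prostaglandin E2 from the product of PTGS2, had medians of 230.3 and 674 CPM and passed without E6-ER (1.55, edgeR, adjusted p = 0.0468), and, with 1 further embryo left out, in 5 of 17 fits, those without M ER or TE AB, AD, AF or AG. LGALS3 (ENSSSCG00000005055), galectin 3, had a count in 3 of 8 M sums, up to 10.1 CPM, and was at 46.5 to 243 CPM in the 9 TE embryos (5.62 without E6-ER, edgeR, adjusted p = 0.0237).

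Of 10 secreted products and steroid enzymes of trophoblast tested, edgeR called 0 with E6-ER and 3 without it, and at an unadjusted p under 0.05 2 were higher in TE, against 6.11% of all genes. DESeq2 called 2 and limma 1 of them. Of 31 endocytosis and lysosome genes, 1 was called, LIPA, higher in M, and without E6-ER 2 more were called higher in TE. The median of that list was 0.74. LIPA (ENSSSCG00000010450), the lysosomal acid lipase, was at 3.39 to 38.3 CPM in M and had 2093 counts there against 1 in TE. The depth-scaled ratio was 1219 (95% counting interval 218.6 to 48180, which leaves out the spread between cells and embryos). MDK (ENSSSCG00000013260), the growth factor midkine, was at 4.66 to 35.6 CPM in M, 43.6 to 195 CPM in TE and 208 to 969 CPM in ICM. The 3 groups did not overlap, and the log2 fold change of TE minus M was 2.38 ± 0.58 (SE, edgeR, adjusted p = 0.0501), and 2.39 ± 0.55 (SE, edgeR, adjusted p = 0.0267) without E6-ER. With E6-ER out, that call was lost without M embryo S or TE embryo AE or AH. SPINT1 (ENSSSCG00000004759), an inhibitor of epithelial surface proteases, was at 13.1 to 68.1 CPM in M and at 103 to 426 CPM in the 9 TE embryos (2.99 without E6-ER, edgeR, adjusted p = 0.00022, 0.0581 with it). Of 34 ligands and receptors tested, edgeR called 0 and, without E6-ER, 1, MDK. At an unadjusted p under 0.05, 3 were higher in TE and 6 in M, against 6.11% and 14.8% of all genes, and DESeq2 called 1 in each direction and limma 1.

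RESF1, higher in M, had the smallest p of all genes tested. RESF1 (ENSSSCG00000030616), a factor in the silencing of endogenous retroviruses, was at 2030 to 4966 CPM in M (median 3817), 102 to 942 CPM in TE (median 473) and 736 to 1330 CPM in ICM (median 1101). Every M embryo was above every TE and ICM embryo. The log2 fold change was -2.89 ± 0.33 (SE, edgeR, adjusted p = 0.000111), and it was called with the first and with the last 4 library numbers (edgeR, adjusted p = 0.000685 and 0.0135) and in 18 of 18 fits that left out 1 embryo. BTBD10 (ENSSSCG00000013395), a BTB domain protein, was at 769 to 2094 CPM in M and 3.88 to 389.6 CPM in TE, with a log2 fold change of -3.36 ± 0.50 (SE, edgeR, adjusted p = 0.00182). BTBD10 was called with the last 4 library numbers (edgeR, adjusted p = 0.0313) but not with the first 4 (0.1625). Here ICM, at 502.8 to 1610 CPM, overlapped M and lay above TE (TE minus ICM -3.09, edgeR, adjusted p = 0.00566). CDV3 (ENSSSCG00000027294) was at 2362 to 7115 CPM in M and 656 to 1891 CPM in TE, with no overlap (-1.54, edgeR, adjusted p = 0.00182). FAM118B (ENSSSCG00000025806) was at 699.5 to 1237 CPM in M and 196 to 672 CPM in TE (-1.25, edgeR, adjusted p = 0.0186), and was not called without M embryo S or T.

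**Figure D4:**
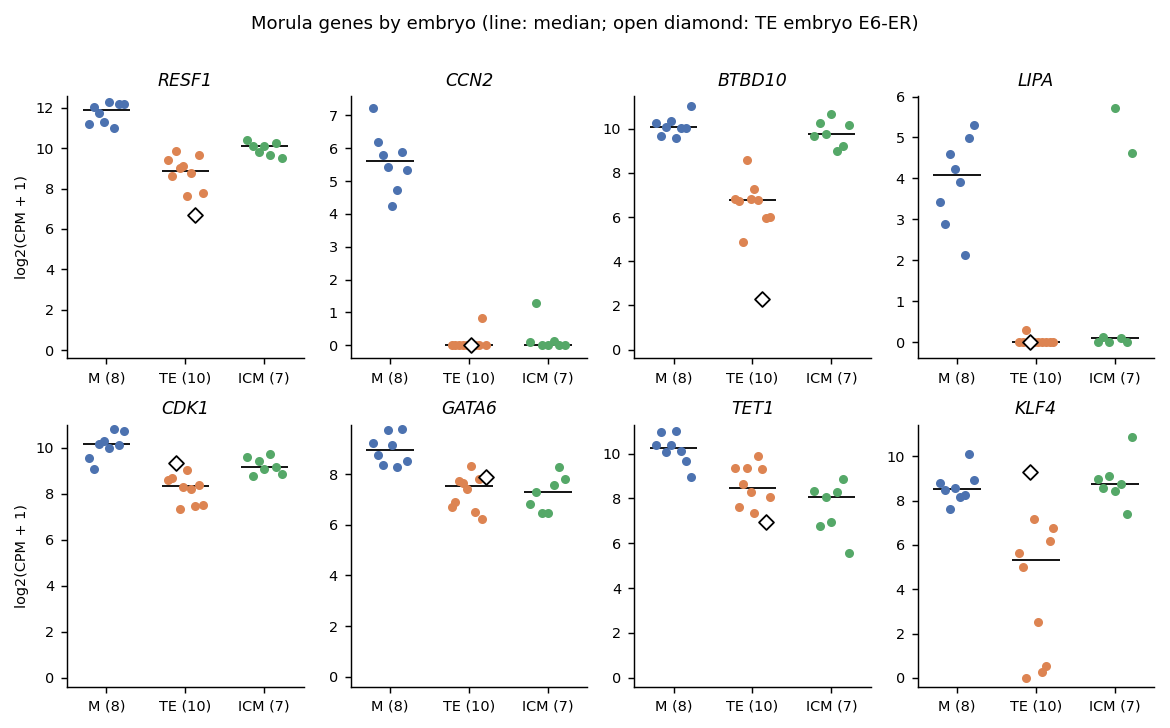
Points are embryo sums of M (8), TE (10) and ICM (7), the y axis is log2(CPM + 1), lines are medians and the open diamond is TE embryo E6-ER. RESF1 and CCN2 are highest in M, BTBD10 and KLF4 overlap between ICM and M, and KLF4 in E6-ER lies with M and ICM.

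Several genes were read in all 8 morulae and not at all in TE. RNF17 (ENSSSCG00000009572), a tudor domain protein of germ cells, was at 6.45 to 58.7 CPM in M with 1840 counts. That is 357-fold above a level of 3 counts over the TE group. Such folds cover read counting only, not the spread between cells or embryos. MYLIP (ENSSSCG00000001063), the ubiquitin ligase that degrades the LDL receptor, was at 2.52 to 81.5 CPM in M, 377-fold above that level. CA3 (ENSSSCG00000006141), a carbonic anhydrase, was at 5.67 to 50.9 CPM in M, 381-fold above it, and had no count in ICM either. RNF17 had a count in 2 ICM sums, up to 50.0 CPM (ICM minus M -0.96, edgeR, adjusted p = 0.839). MYLIP had a count in 2 ICM sums, up to 2.47 CPM (-5.52, edgeR, adjusted p = 0.0533). In single cells these genes were not uniform, since TPM was above 1 in 16 (RNF17), 23 (MYLIP) and 13 (CA3) of 46 M cells. SLC25A25 (ENSSSCG00000005636), a mitochondrial carrier, was at 0.0526 to 42.4 CPM in M, 168-fold above 3 counts over the TE group, and lost its call without M embryo U or X. It had a count in 6 ICM sums, up to 26.5 CPM (ICM minus M -0.58, edgeR, adjusted p = 0.942). NEFL (ENSSSCG00000009649), the neurofilament light chain, was at 74.2 to 519 CPM in M and above 0 in 3 of 10 TE sums, up to 34.9 CPM (-5.79, edgeR, adjusted p = 0.0367). KIF24 (ENSSSCG00000010984), a kinesin of the centriole, was at 4.63 to 94.8 CPM in M and above 0 in 3 TE sums (-5.81, edgeR, adjusted p = 0.0411). NEFL was called in 5 of 18 fits that left out 1 embryo, those without M V or TE AD, AF, AH or E6-ER, and KIF24 in 3, those without M Y or TE AE or E6-ER. With E6-ER out, NEFL was called in 17 and KIF24 in 11 of 17 fits with 1 further embryo left out, KIF24 not without M ER, S, T, U, V or W. TRAFD1 (ENSSSCG00000009886), a restraint on innate immune signalling, was at 288 to 645 CPM in M and 0.64 to 203 CPM in TE (-2.26, edgeR, adjusted p = 0.0314), called in 5 of 18 fits, those without M V or Y or TE AF, AG or E6-ER, and with E6-ER out in 17 of 17.

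No gene of the pluripotency list passed the test. Of 20 genes, edgeR called 0, with 6 higher in M at an unadjusted p under 0.05, against 14.8% of all genes, and DESeq2 and limma each called 1. The list median was -0.93, and -1.18 without E6-ER. KLF4 (ENSSSCG00000005437), a factor of naive pluripotency, was at 198 to 1084 CPM in M (median 368) and at 0 to 627 CPM in TE (median 39.6), where the highest TE embryo was E6-ER. The other 9 TE embryos lay below all M embryos, yet spread widely, and the log2 fold change was -2.06 ± 0.99 (SE, edgeR, adjusted p = 0.234), or -3.31 ± 0.94 (SE, edgeR, adjusted p = 0.0758) without E6-ER. KLF17 (ENSSSCG00000024191) was at medians of 66.6 CPM in M and 31.3 CPM in TE, with a log2 fold change of -0.61 ± 1.03 (SE, edgeR, adjusted p = 0.922). NR5A2 (ENSSSCG00000024975), a nuclear receptor that activates POU5F1, had 752 counts in 4 of 8 M sums and 9 in 1 TE sum (-5.06, edgeR, adjusted p = 0.105). POU5F1, SOX2 and NANOG were not analysed here.

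Of 16 genes of the hypoblast, the later extraembryonic endoderm, 2 were called higher in M, also without E6-ER (0.557% and 0.897% of all genes). The list median was -0.87. The summed level of the list was 900 to 2836 CPM in M and 180 to 915 CPM in TE, the highest of these being E6-ER. GATA6 (ENSSSCG00000003702), the leading hypoblast factor, was at 309 to 881 CPM in M (median 505.5), 75.1 to 323 CPM in TE (median 186) and 86.5 to 313 CPM in ICM (median 155). Its change on the log2 scale was -1.63 ± 0.33 (SE, edgeR, adjusted p = 0.0186), and the call was lost without M embryo ER or U. VCAN (ENSSSCG00000014136), a matrix proteoglycan, had 1677 counts in 7 of 8 M sums and 5 in TE, and 96.5 to 649.5 CPM in ICM. The log2 fold change of TE minus M was -7.42 ± 1.55 (SE, edgeR, adjusted p = 0.0203), and the call was lost without M embryo T. OTX2 (ENSSSCG00000005063), a homeodomain factor, was at 78.6 to 1724 CPM in M and 0 to 405 CPM in TE, highest in E6-ER, and did not pass, with a log2 fold change of -2.92 ± 1.09 (SE, edgeR, adjusted p = 0.0992). PDGFRA (ENSSSCG00000008841), a receptor of hypoblast cells, had 2709 counts in 7 M sums and 797 in TE, of which all but 48 were in E6-ER.

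Of 17 oocyte and cleavage genes tested, edgeR called 0, 9 were higher in M at an unadjusted p under 0.05, against 14.8% of all genes, and DESeq2 and limma each called 1. The list median of -4.44 rests on genes with few counts, 9 of which had no count in TE. ZP3 (ENSSSCG00000007691), a zona pellucida protein, had 43 counts in 2 of 8 M sums and none in TE, and GDF9 (ENSSSCG00000014288), an oocyte growth factor, had a count in 6 M and 2 TE sums (-1.36, edgeR, adjusted p = 0.836). Markers of cumulus cells, which surround the oocyte, and of leukocytes were checked as signs of other cells. The summed level of 3 cumulus genes had a median of 0 CPM in both groups and reached 0.424 CPM in M and 51.2 CPM in TE, where GATM was read and PTX3 and HAS2 were not. That of 6 leukocyte genes had medians of 1.13 CPM in M and 0.163 CPM in TE and reached 6.84 and 18.6 CPM, with TE counts for CD14 and FCER1G and none for LYZ, CD68, C1QA and LAPTM5. In both lists edgeR, DESeq2 and limma called 0 genes, and 1 gene each had an unadjusted p under 0.05. The part of such cells in the results was not tested.

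CDK1 (ENSSSCG00000010214), the kinase that drives mitosis, was at 533 to 1804 CPM in M (median 1135) and at 158 to 636 CPM in TE (median 321), with E6-ER highest in TE. CDK1 had a log2 fold change of -1.76 ± 0.30 (SE, edgeR, adjusted p = 0.00412), called in 18 of 18 fits that left out 1 embryo. CKS2 (ENSSSCG00000021161), a small protein that binds CDK1, had medians of 799.8 and 267 CPM (-1.49, edgeR, adjusted p = 0.0281), not called without M embryo ER, S, T, W or X. In the list of 20 cell cycle genes CDK1 was the only one edgeR called, and the median was -0.93. STMN1 (ENSSSCG00000026257), which destabilises microtubules, was at 261 to 750.0 CPM in M and 72.6 to 611 CPM in TE, highest in E6-ER, and passed without that embryo (-1.57, edgeR, adjusted p = 0.00418). TPX2 (ENSSSCG00000007235), a spindle assembly factor, did the same (-1.94, edgeR, adjusted p = 0.0166, against 0.167 with E6-ER).

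TET1 (ENSSSCG00000010241), which oxidises 5-methylcytosine, was at 489.5 to 2065 CPM in M (median 1221) and 123 to 944 CPM in TE (median 351). A log2 fold change of -1.55 ± 0.36 (SE, edgeR, adjusted p = 0.0396) was called in 4 of 18 fits that left out 1 embryo, those without M embryo U or TE embryo AC, AH or E6-ER. Of 34 chromatin genes, TET1 was the 1 edgeR called, 7 were higher in M at an unadjusted p under 0.05 (14.8% of all genes), and the median was -0.64. EP300 (ENSSSCG00000000068), a histone acetyltransferase, had medians of 331 and 83.4 CPM and passed without E6-ER (-1.92, edgeR, adjusted p = 0.0386), and, with 1 further embryo left out, in 5 of 17 fits, those without M W or Y or TE AA, AD or AH. PABPC4 (ENSSSCG00000003660), a poly(A)-binding protein, was at 232 to 867.9 CPM in M and 22.4 to 262 CPM in TE (-2.18, edgeR, adjusted p = 0.00592). EIF4A2 (ENSSSCG00000011803), an RNA helicase of translation initiation, had medians of 1800 and 669.7 CPM (-1.41, edgeR, adjusted p = 0.0231), not called without M embryo ER, S, T, U or X or TE embryo AE. EIF3A (ENSSSCG00000010679), the large subunit of initiation factor 3, separated the groups without overlap, at 1639 to 3028 and 702.7 to 1617 CPM, with a small change (-0.86, edgeR, adjusted p = 0.0329) that was called in 6 of 18 fits, those without M T or TE AA, AB, AF, AH or E6-ER. COX4I1 (ENSSSCG00000029034), a subunit of cytochrome c oxidase, had medians of 1677 and 624 CPM (-1.33, edgeR, adjusted p = 0.002). Of 24 chaperone and stress genes edgeR called 0, 4 in each direction had an unadjusted p under 0.05, DESeq2 called 4 and limma 2, all higher in TE.

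**Figure D5:**
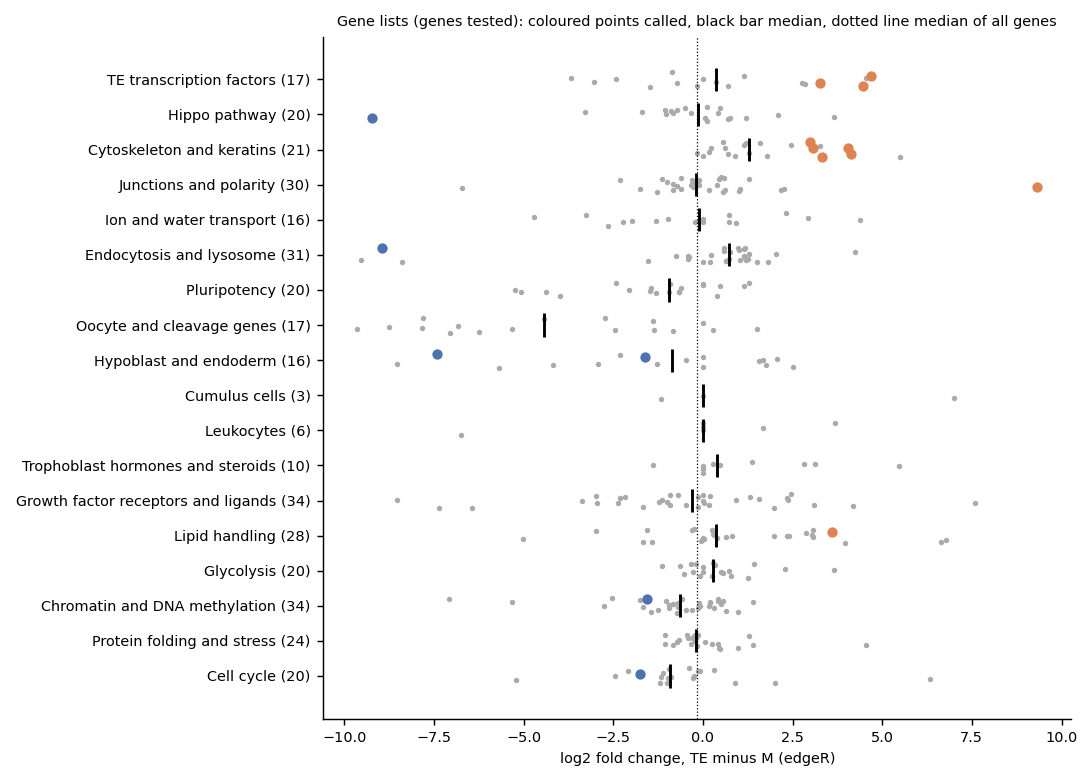
Each point is a gene of 1 of 18 lists, placed by its log2 fold change (TE minus M, edgeR), with called genes coloured, the list's median as a black bar and the median of all genes as a dotted line. The cytoskeleton list has 5 called genes, all higher in TE, and the oocyte list has the lowest median.

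ICM cells of early blastocysts, 24 cells in 7 embryo sums, gave a second lineage to set beside TE. The 3 comparisons share their sums, so their values are given side by side only. Between TE and ICM, 27 genes were called higher in TE (0.183%) and 84 higher in ICM (0.571%). All 7 ICM sums come from embryos that also gave a TE sum, and a fit with the embryo as a block, in which the 3 remaining TE sums, E6-ER among them, do not bear on the contrast, called 37 (0.251%) and 52 (0.353%). In the blocked fit TE minus ICM was 7.04 for KRT8, 7.77 for KRT18, 7.87 for DAB2, 10.88 for PTGS2 and -3.34 for BTBD10 (edgeR, adjusted p = 2e-10, 2.76e-11, 7.06e-05, 0.00459 and 0.00232). All of these were on the same side of the threshold as in the fit without the block. Other named genes changed side. GATA2, ACAT2 and PDGFRA passed only with the block (edgeR, adjusted p = 0.018, 0.049 and 0.0143), and COX4I1 only without it (0.0383). TFAP2A passed in neither (edgeR, adjusted p = 0.113 without the block and 0.202 with it), and its ICM sums reached 184 CPM, within the TE range. KRT8 was lower in ICM than in M (ICM minus M -2.63, edgeR, adjusted p = 0.00944) and higher in TE than in ICM (6.80, adjusted p = 0.00235). KRT18 followed the same order, with -4.33 (edgeR, adjusted p = 7.93e-05) and 7.47 (adjusted p = 0.000696). DAB2 had ICM minus M -5.35 (edgeR, adjusted p = 0.000226), and PTGS2, at a median of 0.574 CPM in ICM, -3.99 (edgeR, adjusted p = 0.079). TE minus ICM was 6.93 for DAB2 and 6.89 for PTGS2 (edgeR, adjusted p = 0.0036 and 0.0435). Without E6-ER, TE minus ICM was 6.96 for KRT8, 7.62 for KRT18, 7.08 for DAB2 and 7.04 for PTGS2 (edgeR, adjusted p = 8.31e-11, 2.76e-09, 5.31e-06 and 0.00796). TPM4, ANXA1 and ITGA5 instead were higher than M in both lineages, with ICM minus M of 3.47, 3.10 and 10.25 (edgeR, adjusted p = 0.00707, 0.0467 and 1.28e-06). RESF1, CCN2, GATA6 and TET1 were lower than M in ICM as well (-1.75, -8.06, -1.65 and -2.37, edgeR, adjusted p = 0.000127, 0.00135, 0.00981 and 0.00374).

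The sum of E6-ER was placed on genes called without it, as each other sum was placed on genes called without that sum. It was nearer the TE median than the M median for 21 of 87 genes higher in TE and for 105 of 132 genes higher in M, 57.5% in all. The other 9 TE sums were nearer TE for 73.7 to 92.7% of genes and the 8 M sums for 12.5 to 41.9%. E6-ER thus lay nearer M for most genes higher in TE, and nearer TE for most genes higher in M. A missing count gives the same placement in both directions. The placement therefore cannot tell genes missed in a single cell from genes that were off, and the part of missed genes was not tested. Among the M sums, V and Y, those of the fewest cells, had the highest shares nearer TE. E6-ER was placed on 219 genes, and the other sums on 56 to 117 genes called with E6-ER in the model. The TMM factor of E6-ER was 1.38, against 0.86 to 1.13 in the other 17 sums. E6-ER also had the fewest genes with a count among the embryo means, 3839, though it had the most counts per cell, 3291110. The highest M embryo mean was 2909250 counts per cell.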

How the data were processed

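Single cells of in vivo pig embryos were sequenced by Smart-seq2. As the authors describe, reads were trimmed, aligned with HISAT2 2.1.0 to the Sus scrofa 10.2 genome with Ensembl annotation and counted per gene with HTSeq, and cells of low depth or high mitochondrial share were removed. The deposited read counts per gene are raw, and the authors' deposited TPM table scales them by gene length and depth. Both tables have 22840 entries, 16 of them added by the authors. Symbols were matched for 11437 identifiers, which hold 74.3% of M and TE counts. Genes without a symbol were tested but not named. No column was left unused.

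Counts were summed by embryo and lineage. Genes above TPM 1 in at least 3 of the 220 cells were kept (14721, of which 9411 have a symbol), normalized by TMM and tested in edgeR 4.0.16 (glmQLFit, glmQLFTest, R 4.3.3) on 8 M and 10 TE sums, with Benjamini-Hochberg adjustment over all genes and a threshold of 0.05. The study itself compared cells. The standard error is the log2 fold change over the root of F. CPM used TMM over M, TE and ICM sums. A count of 0 over a group was set to 3 counts for a fold, which covers read counting only and not the spread between cells or embryos. Embryo means were compared by two-sided exact permutation tests (scipy 1.17.1). Intervals on shares of cells are exact Clopper-Pearson at 95% and cover counting error of cells only. Reads carry no molecular identifiers, so the folds and the LIPA interval taken from read counts treat amplified copies as separate counts. DESeq2 1.42.0, limma 3.58.1 on mean log2(TPM + 1), other filters, the first or last 4 library numbers of the sample titles and leaving out embryos were the alternatives. TE and ICM sums were also compared with the embryo as a block, since 7 embryos gave both. The scripts were tested on simulated data. A comparison of the mitochondrial share was not run, as no mitochondrial gene could be identified.

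Named genes were the 5 markers, in each direction the 10 largest changes among called genes that separated the embryos with over 3 counts in each group and up to 4 with fewer, up to 6 called genes of each list, and textbook members of the lists. DSTN, ACTB, ITGA5, PDPN, ACAT2, NCF1, PABPC4, EIF4A2, COX4I1, CKS2 and the genes that passed only without E6-ER were chosen after their values were seen. Some genes that meet the rule are not reported here. The groups, markers and gene lists were chosen with earlier results of these data known. Embryos are taken as replicates, and nothing in the labels gives their sow or litter, so p-values measure the spread between these embryos.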

Additional observations from a re-analysis of the deposited data

Results flagged for a closer look

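For the named genes (134 groups of 8 or 10 embryos) and for genes and counts per cell (4 more), 138 groups were examined for 1 embryo far from the rest of its group by Dixon's test, and 36 were found, where chance gives about 1 in 20. That rate does not hold for groups almost all at 0 CPM, such as CCN2, LIPA, NR5A2 and ATP1B1 in TE. Several genes were named because their call changed without TE embryo E6-ER, or had set it apart, so its share is not an independent count. TE embryo E6-ER was the far embryo in 17 of the 36 groups. It was at 0 CPM for KRT8, PDPN, GATA3, GATA2, SPINT1, PTGS2, LGALS3, S100A11, DAB2, PTGES, CLDN4 and TEAD4. It was also the far embryo for DSTN (139 CPM), TPM1 (35.8 CPM), ANXA1 (80.5 CPM), KRT18 (0.216 CPM) and PDGFRA (162 CPM), lowest in each but PDGFRA, in which it was highest.
In M, the far embryo was V for COX4I1 (788 CPM), U for PKP3 (0.763 CPM), V for TPM4 (0 CPM), V for ANXA1 (0 CPM), Y for KIF24 (4.63 CPM), Y for S100A11 (0 CPM), T for ZP3 (2.0 CPM), Y for EPCAM (88.4 CPM), Y for GRHL2 (2.13 CPM) and V for KLF17 (0 CPM). In TE, the far embryo was AI for CCN2 (0.79 CPM), AD for CDV3 (656 CPM), AE for LIPA (0.23 CPM), AA for VCAN (0.428 CPM), AG for TRAFD1 (0.64 CPM), AA for EP300 (5.57 CPM), AH for NR5A2 (1.9 CPM), AG for ATP1B1 (23.1 CPM) and AD for GDF9 (19.3 CPM).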

How the results depend on the processing

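Of 67 named genes, all but PDGFRA kept their direction under every alternative that gave them a value (28 for VCAN, SLC25A25, ZP3, NR5A2, ATP1B1 and GDF9, which filterByExpr left out, and 29 for the others), and PDGFRA, not called, reversed to 0.066 without TMM, 0.28 with the last 4 library numbers and 0.39 without M embryo X (PDGFRA log2 fold change, from -10.76 to 0.39 with embryos left out, the lowest without E6-ER and TE embryo AC). RESF1, CDV3, DSTN, ITGA5 and TPM1 were called in all 29. The number of genes higher in TE, 37, was 272 with DESeq2, 116 with limma, 124 with sums of at least 2 cells (which leaves out E6-ER), 60 with the cell of unclear embryo as its own embryo, 261 with all 7 lineages in one model, and 7 and 14 with the first and last 4 library numbers, which hold fewer embryos. The number higher in M, 82, was 329 with DESeq2, 259 with limma, 41 with filterByExpr, 633 with all 7 lineages, and 13 and 36 with the first and last 4 library numbers. Leaving out 1 embryo, alone or after E6-ER, an alternative chosen after seeing the data, gave 18 to 113 genes higher in TE and 38 to 133 higher in M. The difference in genes with a count per cell was -2500 as a sum over cells (p = 0.00279, exact permutation test), where M sums hold more cells, and -932 to -601 with 1 embryo left out (-898 to -561 for genes with a count per cell, thinned). The difference in total counts per cell was -6909300 as a sum (p = 0.0222, exact permutation test), and -205560 to 16155 with 1 embryo left out, positive without M embryo V (7494) and TE embryo AG (16155). The cause of the changes in count was not tested. Between TE and ICM, leaving out E6-ER gave 63 genes higher in TE in place of 27, and the replicate block by embryo gave 52 higher in ICM in place of 84 and 37 higher in TE, alternatives chosen after seeing the data. For M against TE, no paired analysis was possible because no embryo gave both M and TE cells and replicate numbers follow accession order only. The 3 TE sums of 1 cell and the lower counts of TE sums limit what low genes can show.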
